A study of Mus musculus with 20 samples.

Results

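Hepatokines are proteins that the liver releases into the blood and that act on metabolism elsewhere in the body. The 9 genes described here encode such factors: Fgf21, Angptl4, Ahsg, Fetub, Igfbp1, Igfbp2, Inhbe, Lect2 and Sepp1 (current symbol Selenop). They were read by every probe, other than controls, that carried one of these symbols or an accession whose current symbol was one of them. This gave 10 probes of the 41174 on the array, which carry 28786 gene symbols in all. Each gene was read by its brightest probe, and Fgf21 alone had a second. All 9 genes were well above background on all 20 arrays and none of their probes was saturated.

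The study asked how loss of CD44, a cell surface receptor for hyaluronan and osteopontin, changes the response of mice to a high-fat diet (HFD). Male C57BL/6 mice, 7 months of age, had received a diet of 35% fat for 21 weeks and were either wild type, WT(HFD), or CD44 knockout, CD44KO(HFD). The knockout is a null line that had been crossed onto C57BL/6J, so that the loss was not limited to one cell type, and no array came from mice on a normal diet. Total RNA of liver and of white adipose tissue (WAT) was read on Agilent mouse arrays by the one-dye protocol, with 5 arrays for each genotype in each tissue. The labels number the samples of each group but do not say whether liver and WAT of the same number came from the same mouse. All values are the log2 of the processed signal minus the 75th percentile of the array, so that 0 is the 75th percentile of an array. With 5 arrays in a group, the precision of each value is limited by that number.

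Cd44 was checked first. Its brightest probe lay between 0.11 and 0.83 on the WT(HFD) liver arrays and between -4.19 and -3.24 on the CD44KO(HFD) liver arrays, and between 3.55 and 4.56 in WT(HFD) WAT and between -0.67 and -0.35 in CD44KO(HFD) WAT. The genotypes did not overlap in either tissue (limma, adjusted p = 6.65e-06 in liver and 7.64e-06 in WAT). All 10 hepatocyte markers read were well above background on every liver array, and all 10 adipocyte markers on every WAT array. Across probes, r between arrays of one group was at least 0.97 in 3 of the groups. In WT(HFD) WAT the lowest r was 0.826, because replicate 1 stood apart: it had 89.5% of its spots well above background, against at most 69.5% on the other WAT arrays, and all 7 markers of the epididymis well above background. Liver and WAT lay on different slides and were scanned on different scanners and days, so that tissue and these steps cannot be told apart. In bulk tissue, fewer cells of a type and less RNA per cell cannot be told apart either.

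The genes fall into several kinds by what their products do. FGF21 is a hormone of fasting, protein shortage and cell stress that acts on adipose tissue and brain through FGF receptors and their partner beta-klotho. ANGPTL4 inhibits lipoprotein lipase and so keeps triglyceride in the circulation. IGFBP1 and IGFBP2 bind insulin-like growth factors, and insulin represses the gene of the former in liver. The fetuins, from Ahsg and Fetub, are plasma proteins of the cystatin superfamily, and fetuin-A inhibits the insulin receptor kinase. LECT2 is a chemotactic plasma protein, Inhbe encodes the beta E subunit of activins and inhibins, and Sepp1 encodes selenoprotein P, which carries selenium from the liver to other tissues.

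The stretches of promoter below, from RefSeq, are shown because Igfbp2 was the member that passed the test in liver, Fgf21 and Inhbe were the members with lower means in CD44KO(HFD) liver, and Igfbp1 is the textbook insulin-repressed gene of the group. Neither Fgf21 nor Inhbe passed the test in liver, and Inhbe changed sign when CD44KO(HFD) replicate 2 was left out, so that no shared fall is claimed. Promoters of 8 of the 9 members, all but Angptl4, were found in the reference table, which uses build GRCm38.p6. Each line reads 5′ to 3′ on the strand of the gene and ends upstream of its start. Capitals mark TTGCATCA in Fgf21 and Inhbe, a composite element bound by C/EBP and ATF factors, CAAAACAA in Igfbp1, the core of an insulin response element, and GGGCGG, the GC box, in Igfbp2.
Fgf21, chr7:45615592-45615659, minus strand: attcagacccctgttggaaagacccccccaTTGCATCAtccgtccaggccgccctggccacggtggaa
Inhbe, chr10:127351992-127352059, minus strand: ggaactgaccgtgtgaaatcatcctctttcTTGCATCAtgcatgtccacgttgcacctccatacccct
Igfbp1, chr11:7197649-7197716, plus strand: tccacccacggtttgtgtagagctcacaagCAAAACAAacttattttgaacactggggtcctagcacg
Igfbp2, chr1:72824330-72824479, plus strand: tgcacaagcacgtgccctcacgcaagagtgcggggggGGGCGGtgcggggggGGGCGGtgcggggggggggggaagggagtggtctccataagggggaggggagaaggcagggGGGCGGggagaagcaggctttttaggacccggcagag

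The motifs were searched on both strands of the 250 bases before each start. Among 32851 mouse promoters, 0.791% held TTGCATCA, 2.21% held CAAAACAA and 32.7% held GGGCGG. TTGCATCA begins 139 bases before the start of Fgf21 and 181 bases before that of Inhbe. GGGCGG, on either strand, was found 3 times in the Igfbp2 promoter shown and 0 times in a second Igfbp2 promoter. It was also found 3 times before Fgf21 and 1 time in each of 2 Fetub promoters. Its site at 121 bases before Fgf21 lies in the stretch printed above and is not in capitals. None of the 8 members with a promoter in the reference table held the full palindrome bound by HNF1, which 0.00913% of all promoters held. Angptl4 had none there and was not searched. These matches describe letters and are not evidence of binding.

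In liver, Igfbp2 was the member that changed, and it rose about 3-fold in CD44KO(HFD) mice. The other 8 members did not pass the adjusted threshold of 0.05, which 13.6% of the 24689 probes tested in liver passed. Higher calls were made for 7.85% of these probes and lower calls for 5.75%. Over the 9 members, 7 means were higher and 2 lower in CD44KO(HFD) liver, with a median log2 difference of 0.11, and the median over all probes tested was 0.08. Before adjustment 3 members, Igfbp2, Fetub and Fgf21, had a p under 0.05, as had 32.2% of all probes.

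Igfbp2 was read by a probe at chr1:73093964-73094023 of build mm7, the build named in the files. The log2 signal in WT(HFD) liver was 3.42, 4.16, 4.71, 4.80 and 4.69 in replicates 1 to 5. In CD44KO(HFD) liver it was 6.37, 6.76, 4.97, 5.97 and 5.88. All CD44KO(HFD) arrays lay above all WT(HFD) arrays, the closest pair being CD44KO(HFD) replicate 3 and WT(HFD) replicate 4. Of all probes tested 7.5% showed such a gap in this direction, and of the members Igfbp2 alone. The mean was 4.35 ± 0.58 in WT(HFD) and 5.99 ± 0.67 in CD44KO(HFD) liver (SD, n = 5 each), which is a log2 difference of 1.64 with a standard error of 0.35 and a 95% confidence interval from 0.85 to 2.42. The adjusted p was 0.0204 (limma), and an exact permutation test, two-sided, gave p = 0.0079, the smallest that 5 against 5 arrays allow. The 3 liver slides each held both genotypes, and the difference was 1.37, 1.89 and 1.65 within them. The first 2 held 2 arrays of each genotype, and the third held 1 of each, so that 1.65 rests on single arrays. The call was not made under some alternatives, among them the fit without WT(HFD) replicate 2 (adjusted p = 0.0533), a normexp background correction (0.0562) and a fit of all 20 arrays (0.056), while the log2 difference lay between 1.33 and 1.89 under every alternative run.

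Some markers of cell types also passed the test in the same liver samples. Of all probes 13.6% passed, 7.85% higher and 5.75% lower. Of the 10 hepatocyte markers 2, Tdo2 and Cyp2e1, rose and 8 were not called. None of the 10 had a lower mean in CD44KO(HFD) liver. Their mean log2 signal was 6.24, 6.42, 6.62, 6.81 and 6.69 on the WT(HFD) arrays and 7.07, 7.11, 6.68, 7.14 and 6.89 on the CD44KO(HFD) arrays. WT(HFD) replicate 1, the lowest in Igfbp2, was also the lowest in these markers. Of 9 macrophage markers tested 4 fell (median log2 difference -1.33), of 8 markers of stellate cells and fibroblasts 5 fell (median -0.65), of 7 T cell markers 4 fell (median -0.84), and of 7 Kupffer cell markers 2 rose (median 1.14). The summed linear level, relative to the 75th percentile, ranged from 2213 to 2970 in WT(HFD) and from 2841 to 3318 in CD44KO(HFD) liver for hepatocyte markers, and from 13.96 to 32.7 and from 10.1 to 25.1 for macrophage markers. The part of these cells in the Igfbp2 result was not tested.

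**Figure D1:**
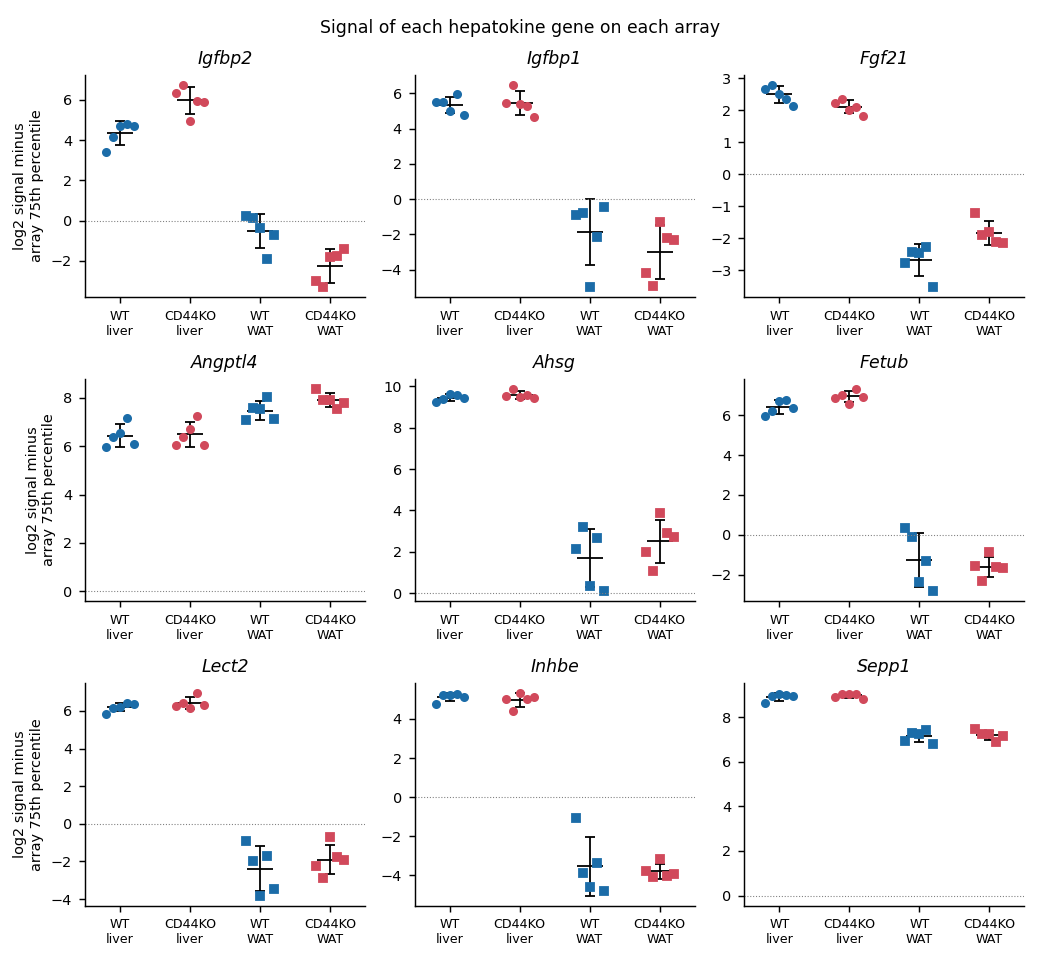
Log2 signal minus the 75th percentile of the array (vertical axes, 1 panel per gene, each with its own scale) in the 4 groups. Points are single arrays in replicate order, circles are liver and squares WAT, blue is WT(HFD) and red CD44KO(HFD), black marks give the mean and bars the SD (n = 5), and the dotted line is the 75th percentile. Igfbp2 shows no overlap of genotypes in liver, and all genes but Angptl4 lie lower in WAT than in liver.

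Fgf21 and Fetub came closest to the threshold after Igfbp2. Fgf21, read at chr7:41790029-41790088 of mm7, had log2 signals of 2.66, 2.79, 2.49, 2.36 and 2.13 in WT(HFD) liver. In CD44KO(HFD) liver the values were 2.24, 2.33, 2.01, 2.11 and 1.83. All 5 CD44KO(HFD) arrays lay below the WT(HFD) mean, but the genotypes overlapped. The log2 difference was -0.39 (standard error 0.14, 95% confidence interval -0.70 to -0.08, adjusted p = 0.0879 by limma), and the exact permutation test, two-sided, gave p = 0.032. Within the 3 slides the log2 difference was -0.48, -0.36 and -0.26, the last from 1 array of each genotype. The second Fgf21 probe gave -0.24 (adjusted p = 0.328, limma), so that both probes had the same sign and neither passed.

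Fetub gave 5.95, 6.21, 6.70, 6.76 and 6.36 in WT(HFD) liver and 6.86, 7.03, 6.57, 7.31 and 6.90 in CD44KO(HFD) liver. The CD44KO(HFD) arrays all lay above the WT(HFD) mean, with replicate 3 below 2 of the WT(HFD) arrays. The log2 difference was 0.54 (standard error 0.18, adjusted p = 0.0709 by limma), and the exact permutation p, two-sided, was 0.032. Of 11 alternatives 2 passed the threshold, the slide as a block (adjusted p = 0.0445, limma) and array weights (adjusted p = 0.0268). These 2 settings called 4275 and 4859 of all probes, against 3358 in the main fit. In the other alternatives Fetub did not pass, with an adjusted p of up to 0.673, in the fit of all 20 arrays. With single arrays left out it passed in 2 of 10 fits. Within the slides the difference was 0.58, 0.69 and 0.16, the last from 1 array of each genotype.

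The remaining 6 members differed little between the genotypes in liver. Ahsg was 9.46 ± 0.15 in WT(HFD) and 9.58 ± 0.17 in CD44KO(HFD) liver (SD, n = 5 each), a log2 difference of 0.13 with a 95% confidence interval from -0.11 to 0.36. Sepp1 was 8.91 ± 0.17 and 8.98 ± 0.10 (SD, n = 5 each), with a difference of 0.07 and an interval from -0.14 to 0.28. Lect2 differed by 0.21 (interval -0.15 to 0.57) and Inhbe by -0.15 (interval -0.52 to 0.23). For these 4 genes no bound was farther from 0 than the upper bound for Lect2. Igfbp1 differed by 0.11 (interval -0.61 to 0.83) and Angptl4 by 0.05 (interval -0.57 to 0.68), so that changes within these intervals, in either direction, are not excluded. The adjusted p of the 6 genes lay between 0.403 and 0.916 (limma). Ahsg, Sepp1 and Angptl4 had the opposite sign after quantile normalization, and Angptl4, Sepp1, Igfbp1 and Inhbe changed sign when single arrays were left out, so that no direction can be given for these 5 genes.

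**Figure D2:**
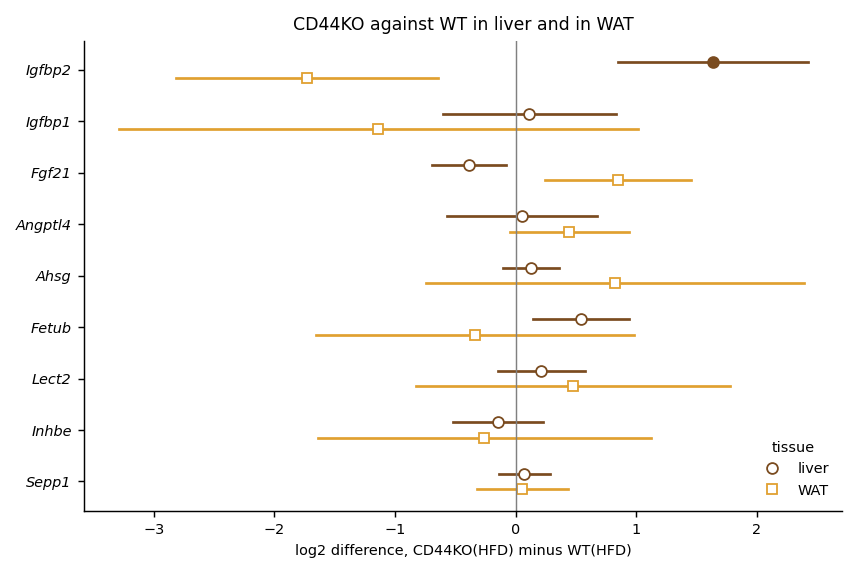
Log2 difference between CD44KO(HFD) and WT(HFD) (horizontal axis) for each gene, in liver (brown circles) and in WAT (yellow squares), with 95% confidence intervals from limma (n = 5 arrays per group). A filled symbol marks an adjusted p under 0.05, which Igfbp2 in liver reached (1.64), while in WAT its difference was -1.73 and no symbol is filled.

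In WAT no member passed the threshold. Only 11 of the 27654 probes tested, 0.0398%, did so, and the smallest adjusted p among the members was 0.198 (limma). Before adjustment 2 of the 9, Igfbp2 and Fgf21, had a p under 0.05, against 14.9% of all probes. The median log2 difference was 0.05 over the members and -0.06 over all probes, with 5 means higher and 4 lower in CD44KO(HFD) WAT.

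Igfbp2 had log2 signals of 0.23, 0.14, -0.36, -1.90 and -0.70 in WT(HFD) WAT. In CD44KO(HFD) WAT it was -2.98, -3.30, -1.80, -1.75 and -1.42. All CD44KO(HFD) arrays lay below the WT(HFD) mean, and the groups overlapped through WT(HFD) replicate 4. The log2 difference was -1.73 (standard error 0.49, 95% confidence interval -2.82 to -0.64, adjusted p = 0.198 by limma), and the exact permutation test, two-sided, gave p = 0.032. The 2 WAT slides that held both genotypes gave -1.53 and -1.49 within them, and the third held CD44KO(HFD) samples only. The first of the 2 held 2 arrays of each genotype, and the second 1 CD44KO(HFD) and 3 WT(HFD) arrays. In a fit of all 20 arrays, which shares the spread with liver, the adjusted p was 0.0308 (limma). That fit called 1817 of the 27654 probes, against 11 in the main fit. Of 11 alternatives it was the only 1 in which Igfbp2 passed, and the adjusted p reached 0.538 with median scaling. The difference was -0.996 with array weights and -1.25 when the median was used for scaling.

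Markers of the mesothelium, the cell layer that covers visceral fat, moved with Igfbp2 in WAT. Their mean log2 signal over 6 genes was -0.40, -0.20, 0.28, -2.07 and -0.38 on the WT(HFD) arrays and -3.09, -3.45, -2.54, -2.56 and -1.39 on the CD44KO(HFD) arrays. WT(HFD) replicate 4 was the lowest WT(HFD) array for both, and CD44KO(HFD) replicates 1 and 2 were the lowest of all for both. Over the 10 WAT arrays Igfbp2 and the markers gave Pearson's r = 0.94 (permutation test, p = 6e-05, adjusted p = 0.00036) and Spearman's rho = 0.87 (permutation test, p = 0.0021, adjusted p = 0.018), with r = 0.94 again without the 2 arrays farthest from the median. The correlation was 0.85 with the genotype means removed and 0.91 with the slide means removed. The genotype means of both lay apart, and no p was computed with them removed. In all 18 such relations were computed, of each of the 9 members with 2 marker lists, and those with the mesothelial list were added after the values were seen. The adjusted p does not cover that choice. All 6 markers had lower means in CD44KO(HFD) WAT, with a median log2 difference of -2.32 and 0 calls (5 had an unadjusted p under 0.05), and all were well above background on every WAT array. Their summed linear level ranged from 2.31 to 11.4 in WT(HFD) and from 1.04 to 3.49 in CD44KO(HFD) WAT. The part of mesothelial cells in the Igfbp2 values was not tested.

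Fgf21 was low in WAT, at -2.76, -2.42, -2.45, -2.26 and -3.53 on the WT(HFD) arrays and -1.22, -1.91, -1.79, -2.11 and -2.15 on the CD44KO(HFD) arrays. All CD44KO(HFD) arrays lay above all WT(HFD) arrays, as was so for 4.1% of all probes tested in WAT, and of the members for Fgf21 alone. The log2 difference was 0.85 (standard error 0.27, adjusted p = 0.225 by limma), and the exact permutation test, two-sided, gave p = 0.0079. The log2 difference ran from 0.42 with array weights to 1.54 with quantile normalization. In the fit of all 20 arrays, which called 1817 probes against 11, the adjusted p was 0.0311 (limma). This was the only 1 of 11 alternatives in which Fgf21 passed, and the adjusted p reached 0.538. The second probe differed by 0.59 (adjusted p = 0.4, limma), and its genotypes overlapped through WT(HFD) replicate 1 (-2.37), the array that stood apart. Within the 2 slides that held both genotypes the brighter probe differed by 0.48 and 1.01, the latter with 1 CD44KO(HFD) array. Fgf21 ran opposite to the mesothelial markers over the 10 arrays (Pearson's r = -0.74, permutation test, p = 0.0074, adjusted p = 0.031). Spearman's rho was -0.83 (permutation test, p = 0.005, adjusted p = 0.018). Pearson's r was -0.38 once the genotype means were removed and -0.63 once the slide means were removed. The genotype means of both lay apart, and no p was computed with them removed. The mesothelial list was added after the values were seen. Angptl4 gave r = -0.73 with these markers (permutation test, p = 0.018, adjusted p = 0.054), and -0.55 with the genotype means removed.

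**Figure D3:**
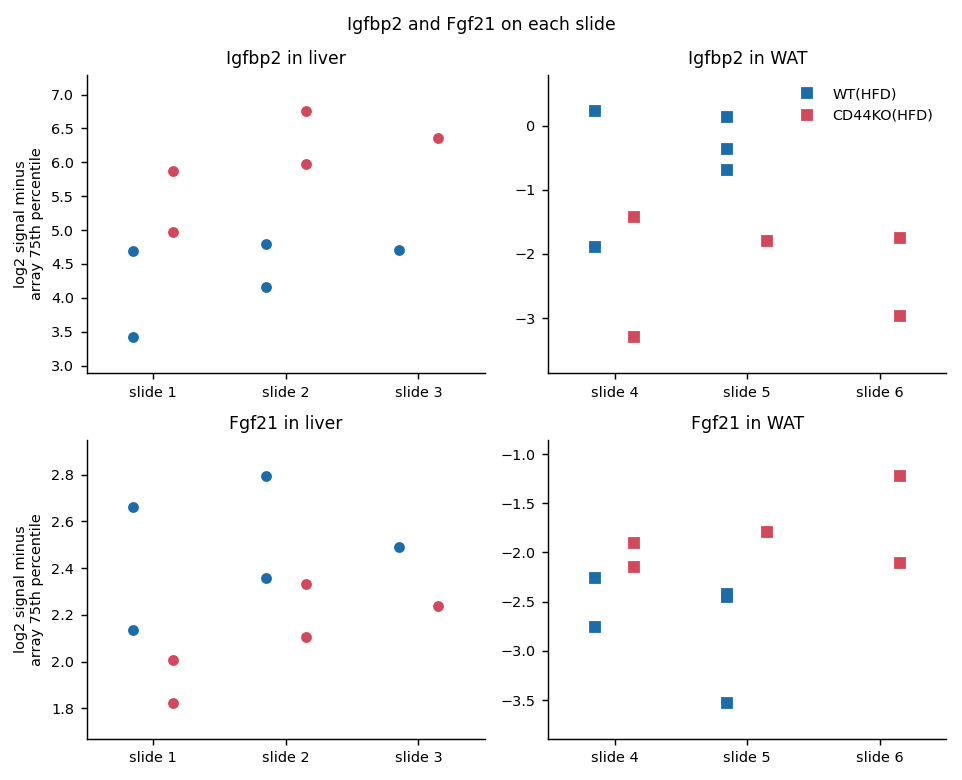
Log2 signal minus the 75th percentile of the array for Igfbp2 (top) and Fgf21 (bottom) on each slide, in liver (left, circles) and WAT (right, squares), with blue points for WT(HFD) and red for CD44KO(HFD) arrays. On each liver slide Igfbp2 was higher in CD44KO(HFD), by 1.37 to 1.89, and on each WAT slide with both genotypes its mean was lower, by -1.53 and -1.49. Slide 3 held 1 array of each genotype, and slide 5 held 1 CD44KO(HFD) array.

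Angptl4, which adipocytes also express, was higher in CD44KO(HFD) WAT by 0.44 (95% confidence interval -0.05 to 0.94, adjusted p = 0.374 by limma), and 5 of 5 CD44KO(HFD) arrays lay above the WT(HFD) mean of 7.47. The difference ran from 0.14 with array weights to 0.92 with median scaling. All 10 adipocyte markers also had higher means in CD44KO(HFD) WAT (median log2 difference 0.69, 5 with an unadjusted p under 0.05 and 0 called by limma), with a summed level from 429 to 705 in WT(HFD) and from 630 to 1080 in CD44KO(HFD) WAT. All 10 macrophage markers had lower means (median -0.44, 3 with an unadjusted p under 0.05 and 0 called), with a summed level from 263 to 455 and from 228 to 377. The part of these cells in the values of Angptl4 was not tested. Sepp1 differed by 0.05 (interval -0.32 to 0.43). Ahsg, Fetub, Igfbp1, Lect2 and Inhbe were spread widely among arrays of one genotype in WAT. Ahsg, for example, ran from 0.08 to 3.19 in WT(HFD) and from 1.08 to 3.89 in CD44KO(HFD) WAT. Igfbp1 ran from -5.00 to -0.43 and from -4.96 to -1.29. Inhbe was -1.09 in WT(HFD) replicate 1, the array that stood apart, and between -4.82 and -3.18 on the other 9 WAT arrays.

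The hepatocyte markers varied among the WAT arrays too. Their mean log2 signal was -0.96, -0.69, -4.05, -1.29 and -3.30 in WT(HFD) and -2.37, -2.78, -0.10, -1.06 and -1.20 in CD44KO(HFD) WAT, far below the levels of 6.24 to 7.14 in liver. Ahsg followed them closely over the 10 arrays (Pearson's r = 0.95, permutation test, p = 6e-05, adjusted p = 0.00036, and Spearman's rho = 0.92, p = 0.00058, adjusted p = 0.01), with r = 0.92 without the 2 arrays farthest from the median, 0.96 with slide means removed and 0.96 with genotype means removed. Lect2 did likewise (r = 0.94, permutation test, adjusted p = 0.00036, and rho = 0.84, adjusted p = 0.018), with r = 0.85 without those 2 arrays and 0.95 within slides. For Fetub r was 0.77 (permutation test, adjusted p = 0.031), rho 0.84 (adjusted p = 0.018), and r 0.65 without those arrays. Igfbp1 gave r = 0.59 and Inhbe r = 0.57 (permutation test, adjusted p = 0.17 each), with rho of 0.49 (adjusted p = 0.36) and 0.73 (adjusted p = 0.06), and r was 0.93 and 0.33 without those arrays. Fgf21, Angptl4, Igfbp2 and Sepp1 gave r between 0.02 and 0.25 with these markers (permutation test, adjusted p of 0.68 or more), but without those arrays r was -0.46, -0.47, 0.70 and -0.34. The r of these 6 genes with the hepatocyte markers therefore depends on those 2 arrays. Between 7 and 10 of the 10 hepatocyte markers were well above background on each WAT array, and their summed level ranged from 4.35 to 38.8 in WT(HFD) and from 11.9 to 51.5 in CD44KO(HFD) WAT. The part of hepatocyte RNA in these values was not tested.

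**Figure D4:**
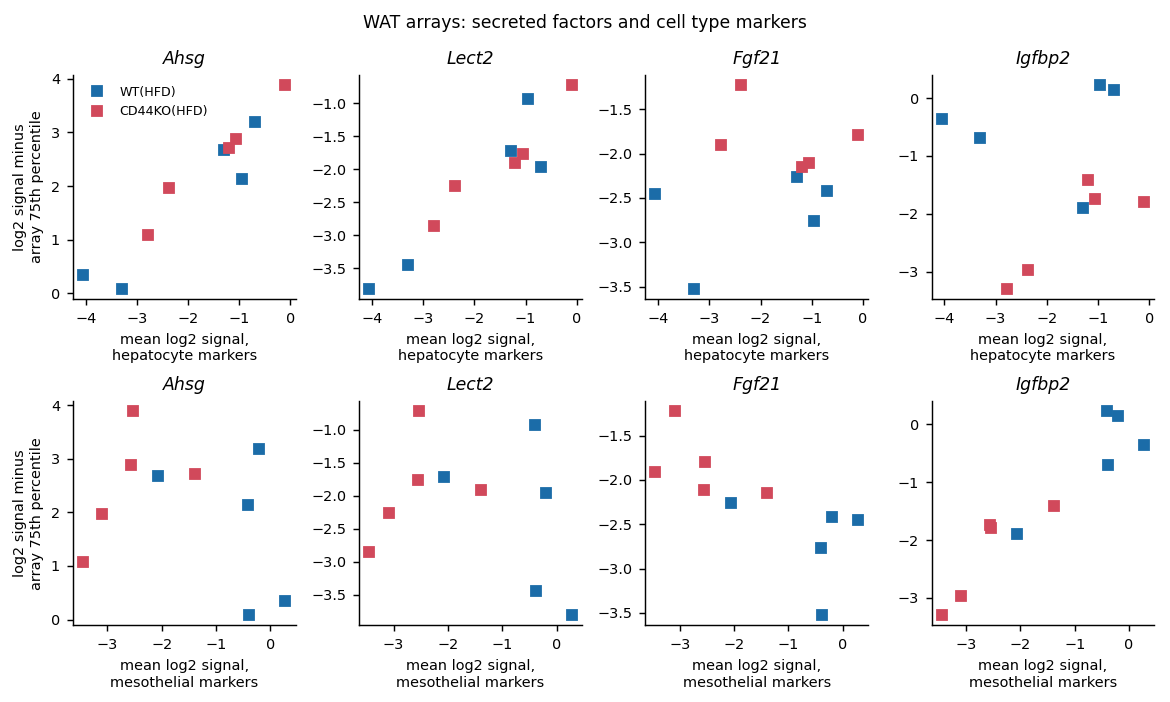
Log2 signal of Ahsg, Lect2, Fgf21 and Igfbp2 on the 10 WAT arrays (vertical axes) against the mean log2 signal of hepatocyte markers (top) and of mesothelial markers (bottom), both minus the 75th percentile of the array. Blue squares are WT(HFD) and red squares CD44KO(HFD) arrays, Ahsg and Lect2 lie along the hepatocyte markers (r = 0.95 and 0.94), and Igfbp2 lies along the mesothelial markers (r = 0.94).

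Whether the effect of the genotype differed between the tissues was tested by an interaction term over all 20 arrays. Igfbp2 passed: its difference in WAT minus that in liver was -3.37 (standard error 0.63, 95% confidence interval -4.70 to -2.03, adjusted p = 0.0201 by limma), higher in 5 of 5 CD44KO(HFD) liver arrays and lower in 5 of 5 CD44KO(HFD) WAT arrays than the WT(HFD) mean. Of the 28989 probes tested 1.15% passed, and 0.279% passed in this direction. The call was not made under some alternatives, among them the median in place of the 75th percentile (adjusted p = 0.0722). For Fgf21 the term was 1.23 (standard error 0.31, adjusted p = 0.0604, limma), and for the second Fgf21 probe 0.83 (adjusted p = 0.276, limma). The other 7 members gave an adjusted p between 0.529 and 0.97 (limma).

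The tissues themselves were compared in WT(HFD) mice. All 9 members passed the threshold, as did 70.5% of all probes. Higher in liver than in WAT were 8 members and 36.2% of all probes, and lower 1 member and 34.3% of all probes. The log2 difference was 8.66 for Inhbe, 8.58 for Lect2, 7.77 for Ahsg, 7.66 for Fetub and 7.20 for Igfbp1, within or near the range of the 10 hepatocyte markers (6.58 to 10.67). Fgf21 was higher by 5.17 and Igfbp2 by 4.87. Sepp1, which many tissues express, was higher by 1.77, and with quantile normalization by 0.0043 (adjusted p = 0.977, limma). The 75th percentile of the processed signal was 433 to 575 on WT(HFD) liver arrays and 1649 to 2708 on WT(HFD) WAT arrays. All tissue differences therefore rest on this scaling. Before scaling, the Sepp1 signal was 225394 to 254491 in WT(HFD) liver and 279838 to 330593 in WT(HFD) WAT, so that its direction depends on the scaling. Angptl4 was lower in liver, with a difference of -1.04 (standard error 0.26, adjusted p = 0.00176, limma), and the adjusted p was 0.0588 when the median was used for scaling. With quantile normalization the difference was -2.69. For Igfbp2 the order of the group means was CD44KO(HFD) liver (5.99), WT(HFD) liver (4.35), WT(HFD) WAT (-0.52) and CD44KO(HFD) WAT (-2.25), and the means of the genotypes in WAT did not pass the limma test. For Fgf21 it was WT(HFD) liver (2.49), CD44KO(HFD) liver (2.10), CD44KO(HFD) WAT (-1.84) and WT(HFD) WAT (-2.68), and within each tissue the means did not pass the test. For Angptl4 the means ran from 7.92 in CD44KO(HFD) WAT and 7.47 in WT(HFD) WAT to 6.49 and 6.44 in CD44KO(HFD) and WT(HFD) liver, with no call between genotypes.

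**Figure D5:**
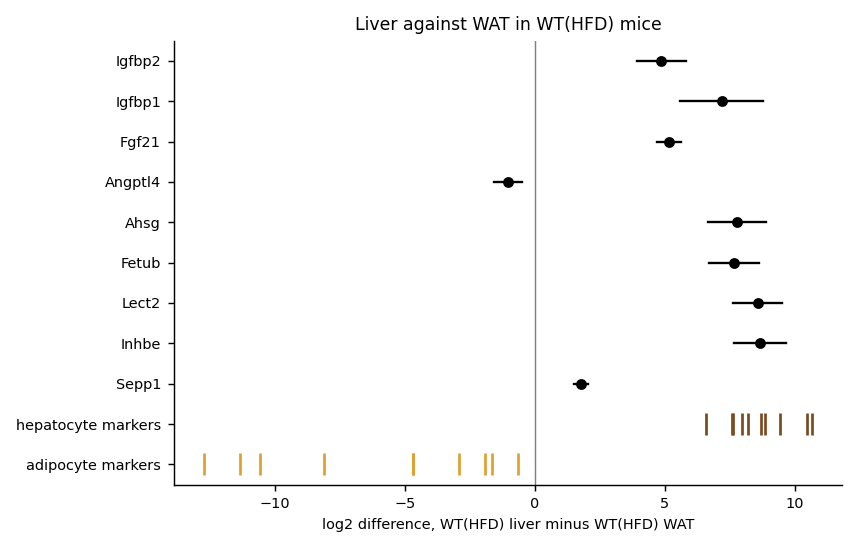
Log2 difference between liver and WAT of WT(HFD) mice (horizontal axis) for each gene, with 95% confidence intervals from limma (n = 5 arrays per tissue), above the single values of 10 hepatocyte markers (brown ticks) and 10 adipocyte markers (yellow ticks). Angptl4 is the member below 0 (-1.04), and Inhbe, Lect2, Ahsg, Fetub and Igfbp1 lie between 7.20 and 8.66.

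Genes that act with these factors were read in liver by lists of symbols, with the share of all probes called (13.6%) as the background. Of 17 tested genes for receptors and control of FGF21, 3 rose and 0 fell, with a median of 0.21, a share close to the background, and 0 of the 3 calls remained with a normexp background correction. These were Nr1h4 (log2 difference 0.46, adjusted p = 0.0219, limma), which encodes the bile acid receptor FXR, Fgf1 (0.73, adjusted p = 0.0219), a related growth factor, and Klb (0.50, adjusted p = 0.0338), which encodes the co-receptor beta-klotho. Of 18 targets of PPAR alpha, the nuclear receptor that induces Fgf21 in fasting, 4 rose and 3 fell, with a median of 0.10, and 2 of the 7 calls remained with normexp. Pdk4, an inhibitor of glucose oxidation, fell by 1.18, Fabp3 by 0.98 and Ucp2, a mitochondrial carrier, by 0.98, while Acot1, an acyl-CoA thioesterase, rose by 1.004. None of 14 entries for partners of ANGPTL4 and lipase genes passed, with 5 at an unadjusted p under 0.05 (limma). Furin stands among these entries under its older symbol Pcsk3 too, read by the same probe.

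In the IGF system 1 of 16 genes rose and 2 fell, with a median of 0.14. Igfbp3, which encodes the main carrier of IGF-I in plasma, fell by 0.93 (adjusted p = 0.0179, limma) and Igfbp7 by 0.49 (adjusted p = 0.0405), and Irs1, an adaptor of the insulin receptor, rose by 0.31 (adjusted p = 0.0321). None of 10 genes of activins and follistatins passed or had an unadjusted p under 0.05 (limma). Among 21 targets of the integrated stress response, which also induces Fgf21, 2 rose and 3 fell (median -0.0031): Atf3, a stress-induced transcription factor, fell by 1.49 and Nupr1 by 0.88, and Shmt2, of mitochondrial one-carbon metabolism, rose by 0.42. Mthfd2, of the same pathway as Shmt2, stood well above background on 4 of 5 WT(HFD) liver arrays and 0 of 5 CD44KO(HFD) arrays, so that its fall has only a bound, of at least 1.74-fold (adjusted p = 0.021, limma). Such a bound sets the mean of the brighter group against the lowest signal that was well above background on each array of the other, or the probe's own where that was higher. Of 22 genes of selenoprotein synthesis and use 2 rose and 3 fell (median 0.09). Gpx4 and Gpx3, glutathione peroxidases that contain selenocysteine, fell by 0.70 and 0.89, and Secisbp2 and Scly, which act in the insertion and recycling of selenocysteine, rose by 0.47 and 0.45.

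Among 7 relatives of the fetuins 3 rose and 1 fell, with a median of -0.05. Hrg, Kng1 and Kng2, plasma proteins made by hepatocytes, rose by 0.72, 0.33 and 0.50, and Cst7, a leukocyte cystatin, fell at least 1.38-fold (adjusted p = 0.00489, limma), being well above background on 0 of 5 CD44KO(HFD) and 3 of 5 WT(HFD) arrays. With normexp 0 of these 4 calls remained. Of 26 other secreted metabolic factors of liver 5 rose and 3 fell (median 0.15), and 0 of the 8 calls remained with normexp. Fgl1, which encodes the hepatokine hepassocin, rose by 1.57 (adjusted p = 0.0209, limma) and Mst1, a plasma growth factor of hepatocytes, by 0.35 (adjusted p = 0.0186). Gpnmb, which is also on the macrophage list, was measured above background on 1 of 5 CD44KO(HFD) liver arrays, against 5 of 5 in WT(HFD), and fell at least 8.34-fold by the same bound (adjusted p = 0.0157). Tsku, a secreted regulator of cholesterol metabolism, fell by 0.71 (adjusted p = 0.0188).

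In WAT 0 genes of these 9 lists passed the threshold (limma). Furin again counts under both its symbols among the partners of ANGPTL4. At an unadjusted p under 0.05 there were 3 of 17 in the FGF21 list, 6 of 18 PPAR alpha targets, 2 of 12 partners of ANGPTL4, 7 of 16 in the IGF system, 6 of 13 activins and follistatins, 5 of 20 targets of the stress response, 5 of 23 selenoprotein genes, 2 of 6 fetuin relatives and 5 of 25 other factors, where all probes gave 14.9%.

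The genes whose liver pattern was most like that of Igfbp2, Fetub and Fgf21 were taken from the probes tested, by Pearson's r over the 10 liver arrays. For Igfbp2 they were Mug2 (r = 0.99, and 0.96 with the genotype means removed), a plasma protease inhibitor, E130308A19Rik (0.98 and 0.95) and Kyat1 (0.98 and 0.96), an enzyme of kynurenine metabolism. For Fetub they were Dtd1 (0.99 and 0.98), Wdr42a (0.99 and 0.97) and Rps14 (0.99 and 0.98). For Fgf21 they were Rangap1 (0.93 and 0.88), Shtn1 (0.91 and 0.87) and Ncoa7 (0.91 and 0.83). These values are descriptions over arrays that share slides and scaling.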

How the data were processed

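Both tissues were read on 20 arrays. The authors deposited spot intensities, the processed signal of Agilent Feature Extraction 9.5.3.1, unscaled between arrays, which the series table repeats. Per the file headers, within-array trends were corrected, no background was subtracted, dim signals were replaced by surrogate values, and well above background meant 13 background SD. The methods name neither a normalization nor a test for arrays.

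From the deposited values the log2 intensity was computed without control and outlier spots, less each array's 75th percentile, as the mean over a probe's spots. A probe was tested if it was well above background on 3 or more of the 5 arrays of any group, by limma 3.58.1 (lmFit, eBayes; R 4.3.3), adjusted by Benjamini-Hochberg over all probes tested, with a threshold of 0.05. Each member also had an exact permutation test, two-sided, of its 252 relabellings, and correlations were permuted 100000 times. By accession, 22951 of 41174 probes matched the reference table. The methods give 5 mice for each genotype, but neither they nor the labels tie single arrays to single mice, so p-values measure the spread between samples. Every member was named, and per list up to 4 called genes of the smallest p. Members and lists were chosen with earlier results of these data known. Code was tested on simulated data. Alternatives varied the background correction, scaling, filter, outlier flags, slide and replicate blocks, weights, samples in the fit, probes averaged and arrays left out.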

Additional observations from a re-analysis of the deposited data

Results flagged for a closer look

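Sepp1 in WT(HFD) liver replicate 1 lay apart from the other arrays of its group, at a log2 signal of 8.62 against 8.94 to 9.04. The gap to its neighbour relative to the range of the group was above Dixon's limit. Of 36 groups of 5 arrays examined, 1 had such a gap, and chance gives about 1 in 20 groups. Without this array the difference between the genotypes in liver was -0.00053 in place of 0.07.

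The effect of the genotype on Igfbp2 differed between the tissues by -3.37 on the log2 scale, with opposite signs in liver and WAT. Mesothelial markers moved with it in WAT. In liver, some markers of cell types were called between the genotypes, where 13.6% of all probes were called. These were 2 of 10 for hepatocytes, 4 of 9 for macrophages, 5 of 8 for stellate cells and fibroblasts, 4 of 7 for T cells and 2 of 7 for Kupffer cells. No relation of Igfbp2 with these markers was computed. The part of these cell types was not tested.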

How the results depend on the processing

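The calls on Igfbp2 depended on the setting. In liver 1 member and 3358 of all 24689 probes were called. With normexp background correction 0 members and 641 probes were called, and with all 20 arrays in one fit 0 and 723. There were 2 members and 4275 probes with the slide as a block, and 2 and 4859 with array weights. With each array left out there were between 0 and 2 members and 924 to 4695 probes. For the difference between tissues 1 member was called, against 0 with median scaling and 1 to 2 with arrays left out. In WAT 0 members were called, and 0 to 0 with arrays left out. With all 20 arrays in one fit 2 were called (Igfbp2 and Fgf21), where 1817 of all 27654 probes were called, against 11 in the main fit. Between the tissues 9 members were called in the main fit and in each fit with an array left out. Igfbp2 kept its sign in both tissues under all of these. In WAT it was -0.996 with array weights and -1.25 with median scaling, and with arrays left out its log2 difference ran from 1.40 to 1.89 in liver and from -2.07 to -1.47 in WAT.

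Counts over all probes moved more. In liver 3358 were called, against 641 with normexp, 1027 with no filter and 723 in the fit of 20 arrays. There were 4275 with the slide block and 4859 with array weights. With arrays left out there were 924 (without WT(HFD) replicate 2) to 4695 (without CD44KO(HFD) replicate 3). In WAT 11 were called, against 35 with normexp, 19 with median scaling, 3 with no filter, 4 with the slide block, 2850 with array weights, 1817 in the fit of 20 arrays and 3 to 37 with arrays left out. For the difference between tissues 334 were called, against 20 with median scaling, 77 with no filter, 621 with the slide block, 2438 with array weights and 84 to 582 with arrays left out. Of the 3358 calls in liver 57.7% were higher, against 33.7% with normexp and 25.6% in the fit of 20 arrays. Median scaling moved the median of all probes in WAT from -0.06 to 0.42. Between the tissues 20432 were called, and 19613 to 22134 with arrays left out. The causes were not tested. With normexp the liver lists held 0 calls against 3 for FGF21 control, 3 against 7 for PPAR alpha, 2 against 3 for the IGF system, 2 against 5 for the stress response, 2 against 5 for selenoproteins, 0 against 4 for fetuin relatives and 0 against 8 for other factors.

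Replicate numbers were not taken to pair the samples, since not every pair had r over 0.1: deviations of same-numbered arrays had r from -0.04 to 0.34 in liver (3 of 5 pairs over it) and from -0.21 to 0.12 in WAT (1 of 5). With the replicate block 1329 probes were called in liver, 3 in WAT and 0 for the difference between tissues, where 0 members were called (Igfbp2, adjusted p = 0.145). In liver Igfbp2 then had an adjusted p of 0.0614 and Fgf21 one of 0.0478 (limma).

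Signs of small differences turned. In liver Angptl4 was -0.041 with normexp and -0.047 with quantile normalization, Sepp1 -0.035 and -0.10, and Ahsg -0.0090 with quantile normalization. In WAT Inhbe was 0.047 with quantile normalization, 0.22 with median scaling and 0.012 with array weights, Sepp1 -0.093 with quantile normalization and -0.15 with weights, and Fetub 0.14 with median scaling. For the difference between tissues Sepp1 was 0.18, 0.0073 and 0.45 with normexp, quantile normalization and median scaling, and Inhbe 0.26, 0.35 and 0.13 with quantile normalization, median scaling and weights. With arrays left out, Angptl4 ran from -0.14 to 0.24, Igfbp1 from -0.15 to 0.31, Inhbe from -0.23 to 0.00029 and Sepp1 from -0.00053 to 0.11 in liver. In WAT Fetub ran from -0.73 to 0.056, Inhbe from -0.58 to 0.35 and Sepp1 from -0.030 to 0.13. Between the tissues Inhbe ran from -0.43 to 0.50, Lect2 from -0.094 to 0.62 and Sepp1 from -0.10 to 0.058.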

Other observations

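Some genes of the lists differed in the effect of the genotype between the tissues, by the interaction term over all 20 arrays (limma), where 1.15% of all probes passed. Among targets of PPAR alpha, the effect in WAT minus that in liver was 1.90 for Pdk4 (adjusted p = 0.0425), 1.58 for Fabp3 (adjusted p = 0.0201) and -1.62 for Acot1 (adjusted p = 0.0255). Pdk4 and Fabp3 were lower in CD44KO(HFD) liver and had higher means in CD44KO(HFD) WAT, and Acot1 the reverse, although none was called in WAT. Among targets of the stress response it was 1.17 for Nupr1 (adjusted p = 0.042). Among genes of selenoprotein synthesis and use it was 1.17 for Gpx4 (adjusted p = 0.0304) and -0.93 for Scly (adjusted p = 0.0293). Mthfd2 passed too, but none of the CD44KO(HFD) liver arrays had it well above background, so that no value is given. These 7 were the genes of the 9 lists that passed. Klb, which encodes the FGF21 co-receptor, had a higher mean in CD44KO(HFD) mice in both tissues, by 0.50 in liver (adjusted p = 0.0338, a call that was not made with normexp) and by 1.10 in WAT (adjusted p = 0.165).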
